A study of Mus musculus with 4 samples.

Results

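E2A peaks at promoters were the peaks of the double-positive (DP) thymocyte list whose midpoint lay within 1 kb of the start site of a protein-coding gene. The start site was the gene-level start in GENCODE release M1 on NCBIM37, the same assembly as the mm9 build of the deposited lists. Of 17532 DP peaks, 2397 met this rule, which is 13.7% (95% Wilson interval, 13.2 to 14.2). The other 15135 DP peaks are called other DP peaks here. The rule used position alone, and the score, the width, the gene class, the sequence and the overlap with the list of invariant natural killer T (iNKT) cells had no part in it.

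E2A was measured by ChIP-Seq, in which crosslinked DNA is pulled down with an antibody and sequenced. The DP cells (CD1dTet- CD4+ CD8+) and iNKT cells (CD1dTet+ TCRβ+) were sorted from thymi of L-DKO mice, which are Id2 f/f Id3 f/f LckCre+ and were 3 to 5 weeks old, on a C57BL/6 background or hybrids of C57BL/6 and 129. For each cell type, cells of 3 to 4 mice were pooled, and 1 library was made after the E2A pull-down and 1 from input DNA. Both cell types lacked Id2 and Id3, and no E2A library of wild-type cells is analysed here. LckCre deletes in thymocytes and leaves the alleles whole in other cells. Since each cell type had 1 library, there was no replicate error, no p-value is given, and all intervals are for counting error over peaks or genes of that library. The number of reads is not in the lists, so depth is unknown.

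E2A, encoded by Tcf3, is a basic helix-loop-helix protein that binds E-box sequences as a dimer with itself or with HEB, the product of Tcf12. The Id proteins lack the basic region that touches DNA, pair with E proteins and keep them off their sites. In DP thymocytes, E proteins are known for their part in the rearrangement of the TCR genes, in the expression of the TCR signaling machinery and in holding cells at this stage until selection. Promoters are of broadly 2 kinds in mammals. CpG-rich promoters serve many genes that most cells use, and CpG-poor promoters more often serve genes of a single tissue.

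Promoters held far more DP peaks than their share of the genome. The windows within 1 kb of a start site covered 1.59% of the assembly, against 13.7% of the DP peaks. The midpoints gathered on the start site itself. Their median offset was -5 bp, with quartiles of -232 and 263 bp, where a negative value is upstream. Of the 2397 peaks, 1039 (43.3%) had a midpoint within 200 bp of the start and 1869 (78.0%) covered a start site. Upstream and downstream sides were alike in number, with 1210 midpoints upstream and 1187 at or downstream of the start.

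**Figure D1:**
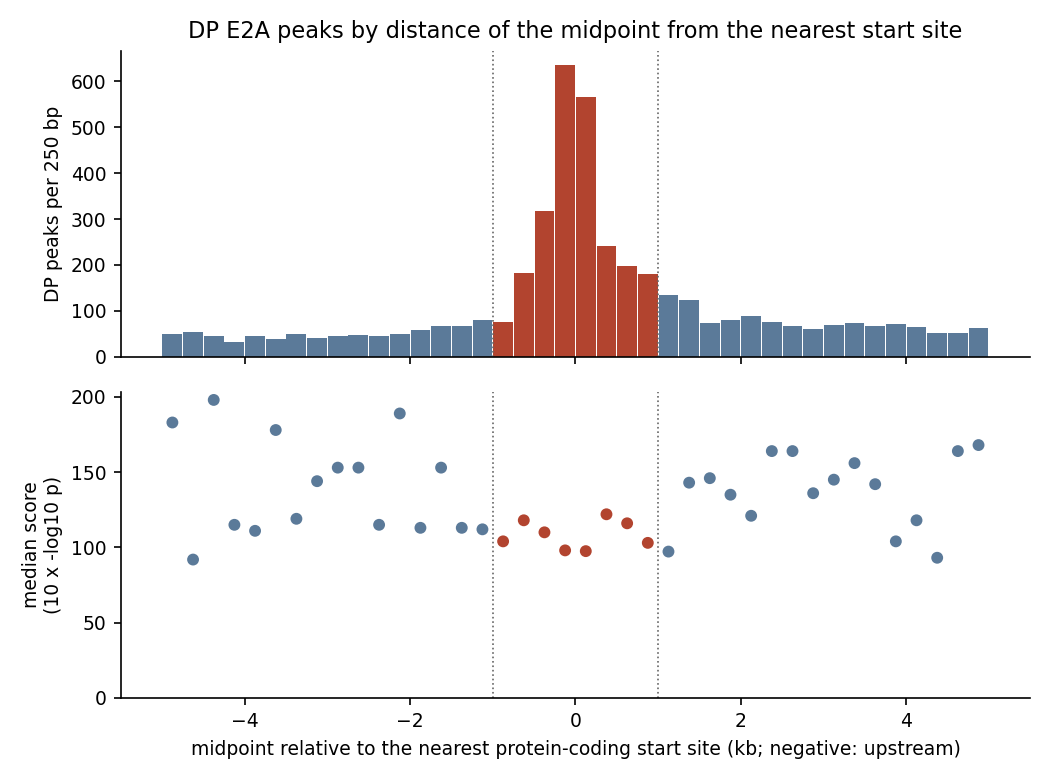
Number of DP peaks per 250 bp (upper panel) and their median score (lower panel) against the distance of the peak midpoint from the nearest protein-coding start site in kb, with promoter peaks in red, other DP peaks in blue and dotted lines at 1 kb. The counts are highest in the bins beside the start site, while the median score of the promoter bins lies near the 105 of all promoter peaks.

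Most promoter peaks could be given to a single gene. A start site of 1 gene lay within 1 kb of 2144 peaks, 2 start sites lay near 248 peaks and 3 near 5 peaks. In 159 cases the starts of genes that point away from each other both lay within 1 kb of the midpoint, so the peak cannot be given to 1 of them alone. In all, 2587 of 22225 protein-coding genes had a DP promoter peak, which is the background of 11.6% for each gene class below. A DP peak elsewhere in or around the gene (its body, 30 kb upstream or 5 kb downstream) was also present at 58.2% of the genes with a promoter peak (56.3 to 60.1) and at 27.6% of the genes without one (26.9 to 28.2). Promoter peaks thus lay more often at genes with a further DP peak, although gene length and neighbors were not matched in this comparison.

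Promoter peaks were weaker than other DP peaks but slightly wider. The score of a peak is the authors' value from MACS, 10 times the negative log10 of its p-value, and the lowest score, 50, is a p-value of 1e-05. The median score was 105 at promoters (95% interval, 101 to 110; quartiles 69.2 and 210) and 150 at the other DP peaks (146 to 155; quartiles 77.8 and 400). The difference was -44.9 (-51.1 to -38.5). The scores of peaks 1 to 10 kb from a start site (median 143), in gene bodies (157) and between genes (150) were all higher than at promoters.

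The median width was 1042 bp at promoters and 977 bp elsewhere, a difference of 65.0 bp (47.5 to 87.5). Width grows with score, so widths were also compared within quintiles of score taken over all DP peaks. In the lowest quintile, promoter peaks had a median width of 833 bp and other DP peaks 693 bp. In the middle quintile the values were 1074 and 944 bp, and in the highest 1667 and 1601 bp. At like score the promoter peaks were therefore the wider in each of the 5 quintiles.

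**Figure D2:**
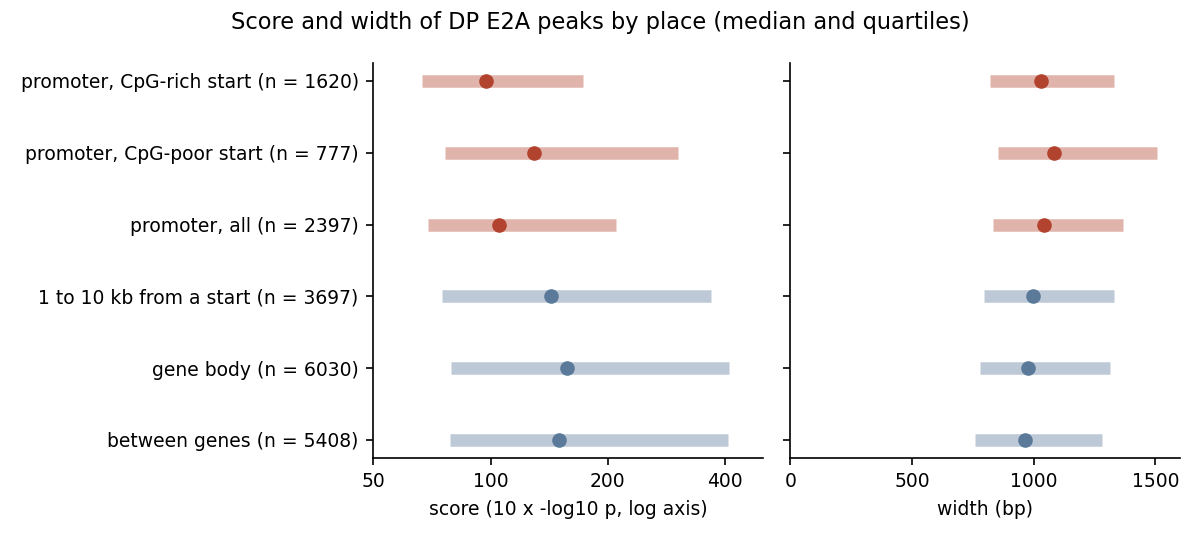
Median (point) and quartiles (bar) of the score, on a log axis, and of the width in bp, for DP peaks at promoters (red) and elsewhere (blue). The promoter peaks with a CpG-rich start site have the lowest median score, 97.2, and the promoter peaks have the largest median widths.

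The promoter share fell with score. Promoter peaks were 17.2% of the peaks in the lowest quintile (16.0 to 18.5) and 6.96% in the highest (6.16 to 7.85). Few of the strongest DP peaks lay at promoters. A score of 3100 or more was reached by 14 promoter peaks and 270 other DP peaks, and 3100 itself is a value shared by ties that have no order among them.

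CpG-rich and CpG-poor promoters differed in both strength and frequency. A start site was called CpG-rich when the 500 bp on either side had a GC content of 50% or more and an observed to expected CpG ratio of 0.6 or more. A CpG-rich start site was the nearest start for 1620 promoter peaks (67.6%), while 44.3% of all genes have one. Among genes with a CpG-rich start, 18.1% had a promoter peak (1779 of 9842), and among genes with a CpG-poor start 6.53% did (808 of 12383). The peaks at CpG-poor starts were stronger, however, with a median score of 129 (117 to 141) against 97.2 (92.9 to 102).

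The strongest promoter peaks lay at genes of different kinds. Cd97, an adhesion receptor of leukocytes, had the highest score among them, 3144. At 3100 were Cd8a and Rag1, which encode a chain of the CD8 coreceptor and a subunit of the recombinase that rearranges TCR genes. The peak at Cd8a was 8994 bp wide and the widest of the 14. The peak at Rag1 is shared with the overlapping gene B230118H07Rik, whose start site lies beside that of Rag1.

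The others at 3100 were Pik3r5, a regulatory subunit of PI3 kinase gamma, Ddit4, an inhibitor of mTORC1, Poll, an end-joining DNA polymerase whose peak is shared with the divergent gene Dpcd, Rbm17, a splicing factor, Slc16a5, Spo11, Nsg2, 6330406I15Rik, 1700041G16Rik, A630091E08Rik and Pgk1. Spo11 is the enzyme that makes the DNA breaks of meiosis. Of the 14 peaks, 10 had a CpG-poor start site. Pgk1, which encodes a glycolytic enzyme, stood apart: its peak had a width of 916 bp and held no CAGGTG, and it had a score of 3100 in the iNKT list as well. The Pgk1 promoter is also widely used to drive selection cassettes in targeted alleles. The sources used here do not say whether an allele of these mice carries such a cassette, and its part in this peak was not tested.

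The sequence around the E-box of 11 promoter peaks follows, chosen because these peaks have top scores, are shared with iNKT cells or belong to T cell genes named below. Each is 106 bases of the NCBIM37 assembly, upstream of the start site and outside annotated exons, written 5′ to 3′ on the strand of the gene. The capitals mark the E-box, CAGGTG or, read from the other strand, CACCTG. Further E-boxes in a window are in lower case.
Rag1, chr2:101490153-101490258, minus strand: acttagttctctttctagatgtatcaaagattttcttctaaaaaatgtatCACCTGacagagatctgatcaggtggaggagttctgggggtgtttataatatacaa
Pik3r5, chr11:68244741-68244846, plus strand: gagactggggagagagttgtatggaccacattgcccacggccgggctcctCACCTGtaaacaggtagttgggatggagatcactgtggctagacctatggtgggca
Nsg2, chr11:31899892-31899997, plus strand: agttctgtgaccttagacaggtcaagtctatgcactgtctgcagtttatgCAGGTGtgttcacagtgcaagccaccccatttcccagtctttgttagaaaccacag
A630091E08Rik, chr7:105711645-105711750, minus strand: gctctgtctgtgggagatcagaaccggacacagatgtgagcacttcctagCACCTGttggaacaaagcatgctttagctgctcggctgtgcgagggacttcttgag
Padi4, chr4:140330968-140331073, minus strand: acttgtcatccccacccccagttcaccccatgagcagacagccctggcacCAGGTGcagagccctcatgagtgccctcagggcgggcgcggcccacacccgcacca
Cd3g, chr9:44788607-44788712, minus strand: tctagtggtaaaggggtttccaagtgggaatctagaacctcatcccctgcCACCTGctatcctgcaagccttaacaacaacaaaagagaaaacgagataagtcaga
Sla, chr15:66663413-66663518, minus strand: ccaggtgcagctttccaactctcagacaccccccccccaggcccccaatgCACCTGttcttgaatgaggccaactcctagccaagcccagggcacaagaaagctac
Cd8b1, chr6:71272475-71272580, plus strand: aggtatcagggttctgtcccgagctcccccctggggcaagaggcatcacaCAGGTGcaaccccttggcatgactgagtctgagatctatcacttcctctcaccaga
Zap70, chr1:36818397-36818502, plus strand: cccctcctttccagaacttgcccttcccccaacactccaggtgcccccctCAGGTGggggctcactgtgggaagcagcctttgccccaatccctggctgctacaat
Dntt, chr19:41103235-41103340, plus strand: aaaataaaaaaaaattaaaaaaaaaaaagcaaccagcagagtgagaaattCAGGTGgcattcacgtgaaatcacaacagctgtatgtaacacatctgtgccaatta
Gzma, chr13:113891213-113891318, minus strand: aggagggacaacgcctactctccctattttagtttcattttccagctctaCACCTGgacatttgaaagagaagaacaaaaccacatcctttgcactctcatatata

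In the Rag1 window the capitals lie 37 bp from the peak midpoint and a second copy of the same core, on the other strand, follows within the window. The windows of Sla and Zap70 also hold 2 copies of CAGGTG. In Gzma the capitals lie 12 bp from the midpoint and 79 bp upstream of the start site, the nearest to a midpoint among these 11. In 7 of the 11 the capitals lie more than 100 bp from the midpoint, up to 527 bp at Cd3g, 460 bp at Zap70 and 402 bp at Dntt, and so outside the central 200 bp in which cores are counted below.

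E-boxes were less frequent at promoter peaks than at other DP peaks, but more frequent than at promoters in general. Motif cores, read in either orientation, were looked up in the central 200 bp of each peak and in 200 bp centered on each protein-coding start site. CAGGTG was present in 33.4% of promoter peaks (31.5 to 35.3), in 45.6% of other DP peaks (44.8 to 46.4) and in 13.9% of all start sites. CAGCTG, another E-box, was present in 22.5%, 30.1% and 12.3% of them. The E-box cores were counted separately. CAGATG, also an E-box, was present in 13.6% of promoter peaks and 25.1% of other DP peaks, beside 9.55% of all start sites. CAGGTG was less frequent in promoter peaks than in other DP peaks in each score quintile, from 29.0% against 41.2% in the lowest to 34.0% against 48.1% in the highest.

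Over the whole length of the peak, rather than 200 bp, 74.8% of promoter peaks held a CAGGTG (73.0 to 76.5) and 79.7% of other DP peaks did (79.0 to 80.3). Of the 14 promoter peaks with the top scores, 13 held it, Pgk1 being the exception. Within the promoter window, CAGGTG was least frequent in peaks whose midpoint was 0 to 250 bp from the start, at 29.0% (26.5 to 31.6), and was 37.8% at 250 to 500 bp (33.8 to 41.9).

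Cores of other factors were counted in the same windows. The Runx core (ACCACA) was present in 10.3% of promoter peaks and 25.9% of other DP peaks, against 10.1% of all start sites. The Tcf/Lef core (TCAAAG) was present in 9.85%, 18.6% and 8.14% of them, and the Gata core (TTATCT) in 4.96%, 9.49% and 5.41%. All 3 T cell cores were thus less frequent in promoter peaks than in other DP peaks. The shares of Runx and Gata were near those of all start sites, and that of Tcf/Lef was slightly higher (8.72 to 11.1 against 7.79 to 8.51). In contrast, the GC box of the Sp and Klf proteins (GGGCGG) was present in 35.3% of promoter peaks, 7.57% of other DP peaks and 40% of all start sites, and the Ets core (CCGGAAG) in 9.47%, 2.74% and 9.38%. The shares at promoter peaks lay between those of other DP peaks and of all start sites for 3 more cores. The CCAAT box of NF-Y was present in 21.1%, 16.0% and 27.3%, the CRE site (TGACGTCA) in 1.25%, 0.509% and 1.93% and the Nrf1 site (GCGCATGC) in 1.50%, 0.489% and 2.58%. A core is a match of letters and not a measured site, and the median GC content of the windows was 59.5% at promoter peaks and 50% at other DP peaks. Promoter peaks and all start sites also differ in where the window is centered and in the share of CpG-rich starts. The Runx core, for example, was present in 7.84% of promoter peaks with a CpG-rich start and 15.4% of those with a CpG-poor start.

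Overlap with the iNKT list was rare at promoters. An iNKT peak overlapped 78 promoter peaks by 1 bp or more, which is 3.25% (2.62 to 4.04), beside 5.99% of all DP peaks. Among other DP peaks 973 did so, which is 6.43% (6.05 to 6.83), and the difference was -3.17 percentage points (-3.93 to -2.30). The share was 4.95% at 1 to 10 kb from a start site, 6.67% in gene bodies and 7.17% between genes. The iNKT list holds 1516 peaks and its depth is unknown, so a DP promoter peak with no iNKT peak was not called in iNKT cells and need not be unbound there.

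The overlap rose steeply with score. The 78 shared promoter peaks had a median score of 704 in the DP list (544 to 1065), against 103 for the 2319 that were not shared. In the highest score quintile, 21.3% of promoter peaks (16.6 to 26.9) and 20.3% of other DP peaks (18.9 to 21.7) overlapped an iNKT peak, a difference of 1.05 points (-3.83 to 6.78). In the lowest quintile the shares were 0.166% and 0.999%, a difference of -0.833 points (-1.29 to -0.00962). In the 3 quintiles between, the differences were -1.06, -1.24 and -1.56 points, and the interval of each reached past 0.

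**Figure D3:**
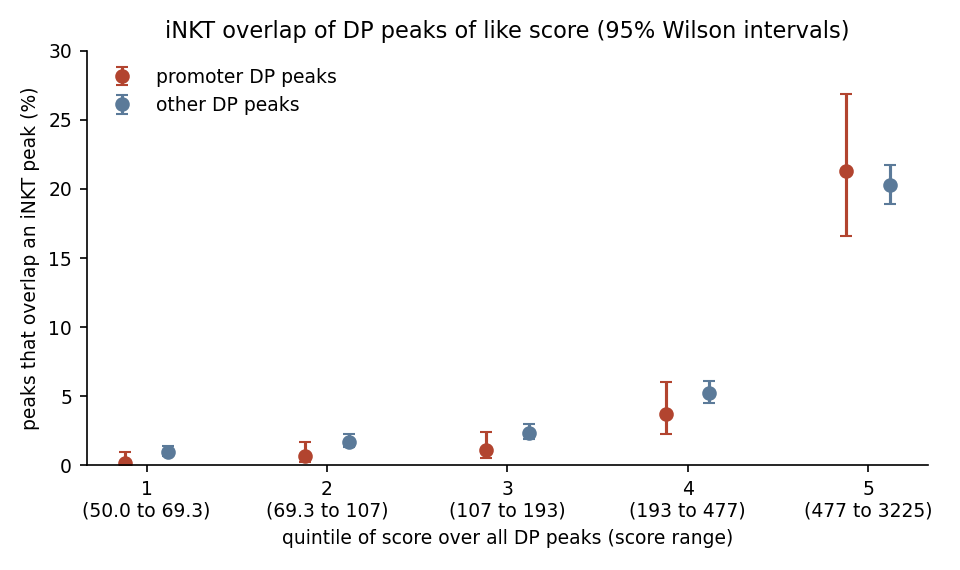
Overlap of DP peaks with the iNKT list (% of peaks) in each quintile of score over all DP peaks, for promoter peaks (red) and other DP peaks (blue), with 95% Wilson intervals. The shares rise with score in both, from 0.166% and 0.999% to 21.3% and 20.3%.

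Most of the gap in overlap went with the lower scores of promoter peaks. When the other DP peaks were weighted to the score quintiles of the promoter peaks, 4.17% of them overlapped an iNKT peak, against 3.25% of the promoter peaks, which leaves -0.914 of the -3.17 points. This weighting was chosen after the data had been seen. Among peaks of score 3100 or more, 6 of 14 promoter peaks (42.9%, 21.4 to 67.4) and 161 of 270 other DP peaks (59.6%, 53.7 to 65.3) were shared. CpG-poor promoter peaks were shared more often than CpG-rich ones, with 5.02% against 2.41%, a difference of 2.61 points (1.03 to 4.49).

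The shared promoter peaks were of several kinds. Among the 10 with the highest iNKT score, Pgk1 (iNKT score 3100) was followed by Gm10717 (1452), A630091E08Rik (507), Zfp651 (492), Gm10801 (470) and Gm10800 (466). The peaks of Gm10717, Gm10801 and Gm10800 held no CAGGTG, and their sequence had a median copy number of 6, 2 and 3 in the assembly. Only 18 of the 2397 promoter peaks (0.751%) had a copy number of 2 or more, and 4 of these were among the 78 that were shared. The share among other DP peaks was 2.04%. Reads with several equally good positions had been discarded by the authors, and the part that repeated sequence has in these peaks was not tested.

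The remaining 4 of the 10 were 4921504E06Rik (iNKT score 393), Nsg2 (242), Padi4 (233) and Cpsf4l (221). Each of these peaks held 4 or 5 copies of CAGGTG over its whole length and had a copy number of 1. This was not a trait of the shared peaks as a set. In the central 200 bp, 19 of the 78 shared promoter peaks held CAGGTG (24.4%, 16.2 to 34.9), beside 33.4% of all promoter peaks. In the DP list, Padi4, which encodes a peptidylarginine deiminase, had a score of 2969 and Cpsf4l a score of 1324.

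Several T cell genes were among the shared peaks below these. Gzma, which encodes the cytotoxic protease granzyme A, had a DP peak of score 895 with its midpoint 67 bp upstream of the start, overlapped by an iNKT peak of score 160. The divergent pair Cd3d and Cd3g shared a DP peak of 2314 and an iNKT peak of 147. Sla2, an adaptor that dampens TCR signals, had 2709 in DP and 134 in iNKT. Cxcr4, the chemokine receptor of early thymocytes, had 2727 and 65.8, and Dclre1c, the Artemis nuclease that opens hairpins in V(D)J recombination, had 2535 and 52.2. These scores place each peak within its own list and are not amounts that can be compared between lists.

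Genes of the TCR complex, its coreceptors and its signaling carried a promoter peak more often than any other class in the plot of gene classes. Of 49 genes, 32 had a DP promoter peak, 65.3% (51.3 to 77.1) beside the background of 11.6%. Nearly all were CpG-poor promoters. Of 39 TCR genes with a CpG-poor start site, 29 had a peak (74.4%), beside 6.53% for all CpG-poor genes. The median score was 265, higher than the 105 of all promoter peaks.

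Among the chains of the receptor and its coreceptors, Cd8a (score 3100) and Cd8b1 (1321), which encode the CD8 chains, both had higher scores than Cd4 (216). The Cd3d and Cd3g peak (2314) and Cd247 (575), the zeta chain, were joined by no promoter peak at Cd3e. The kinases of the pathway had peaks as well, among them Txk (570), Zap70 (474) and Lck (202). Of the adaptors, Sla (2536) and Lat (1545) ranked above Lcp2 (182), Grb2 (279) and Trat1 (92.3). The weakest of the class were Sh2d1a (57.3) and Pag1 (50.7), close to the lowest score in the list, and Plcg1, Cd28, Fyn and Prkcq had none at the gene-level start.

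Lck has annotated starts at a distal and a proximal promoter, and the gene-level start is the distal one. A second DP peak, of score 1166, lay 1.68 kb upstream of it and was overlapped by an iNKT peak of score 76.7. A DP peak of 382 lay 15.4 kb downstream, toward the proximal starts. The proximal Lck promoter also drives the Cre transgene of these mice, and reads from the transgene and from the gene cannot be told apart.

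Of the genes for V(D)J recombination and end joining, 6 of 18 had a promoter peak (33.3%, 16.3 to 56.3). Rag1 (3100) and Rag2 (622), the recombinase, and Dntt (140), which adds nucleotides at the joints, are used by lymphocytes. Dclre1c (2535), Lig4 (186) and Atm (90.4), which also serve DNA repair in other cells, had the other peaks. Xrcc5, Xrcc4 and Prkdc, also of general end joining, had no promoter peak.

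**Figure D4:**
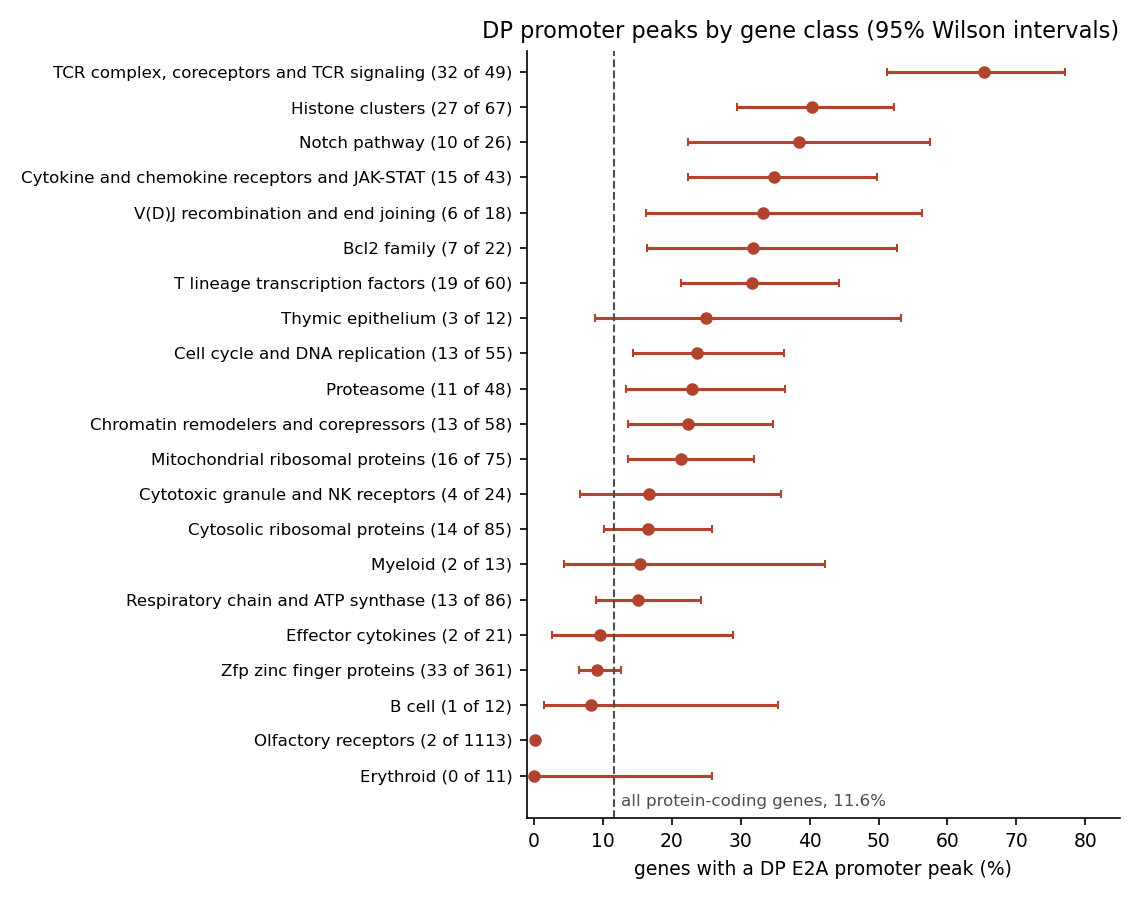
Share of the genes in each class that have a DP promoter peak (%), with 95% Wilson intervals and the number of genes in brackets. The dashed line is the 11.6% of all protein-coding genes, and the TCR class lies farthest above it at 65.3%.

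Transcription factors of the T lineage had promoter peaks in 19 of 60 cases (31.7%, 21.3 to 44.2), of moderate score. None of the 19 peaks overlapped an iNKT peak, beside 3.25% of all promoter peaks, so this count was too small to set the class apart. The highest were Satb1 (763), a chromatin organizer of thymocytes, Klf13 (753), Sox4 (556), Runx1 (236) and Tcf7 (218). Tox (189), Myb (129), Bcl11b (87.1) and Runx3 (74.2) were lower. Tcf3, which encodes E2A itself, had a peak of 72.4 and Tcf12, which encodes HEB, one of 93.2. Most genes of this class, 44 of 60, have a CpG-rich start site, and 15 of these had a peak (34.1%), beside 18.1% of all such genes. Of the 16 with a CpG-poor start 4 had a peak (25%), beside 6.53% of all such genes.

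No promoter peak lay at Lef1, Gata3, Zbtb16, Egr2, Id2 or Id3 by the gene-level start, nor at the receptor genes Slamf6 and Ifngr1. For some of these the start site used decides the matter. A DP peak lay within 1 kb of another annotated transcript start of Lef1 (score 147, 2.33 kb from the gene-level start), Egr2 (162, 2.39 kb) and Id3 (115, 1.48 kb). Notch1, the receptor that commits cells to the T lineage, had its peak of 2199 at a transcript start 49.0 kb downstream of the gene-level one. With the starts of all transcripts, 14.4% of all genes and 48.3% of the T lineage factors had a peak. A gene without a promoter peak can hold DP peaks elsewhere, and the paper reports E2A peaks at Zbtb16, Lef1 and Gata3. Of the 60 T lineage factors, 50 had a DP peak elsewhere in or around the gene. Over all genes this held for 58.2% of those with a promoter peak and 27.6% of those without.

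In the Notch pathway 10 of 26 genes had a promoter peak (38.5%, 22.4 to 57.5), and most were weak. The highest was Mfng (278), a glycosyltransferase that modifies Notch, followed by Notch3 (136). The target gene Hes1 had a peak of 61.6. The median score of these 10 was 68.5, below the 105 of all promoter peaks.

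Receptors for cytokines and chemokines and the JAK-STAT genes had 15 of 43 (34.9%, 22.4 to 49.8). Below Cxcr4 (2727) lay the chemokine receptor Ccr4 (554), the inhibitor Socs1 (548) and the signal transducer Stat3 (204), among others. Il2ra (64.7), Il2rg (69.2) and Jak3 (62.7) had weak peaks, and Il7r had none.

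**Figure D5:**
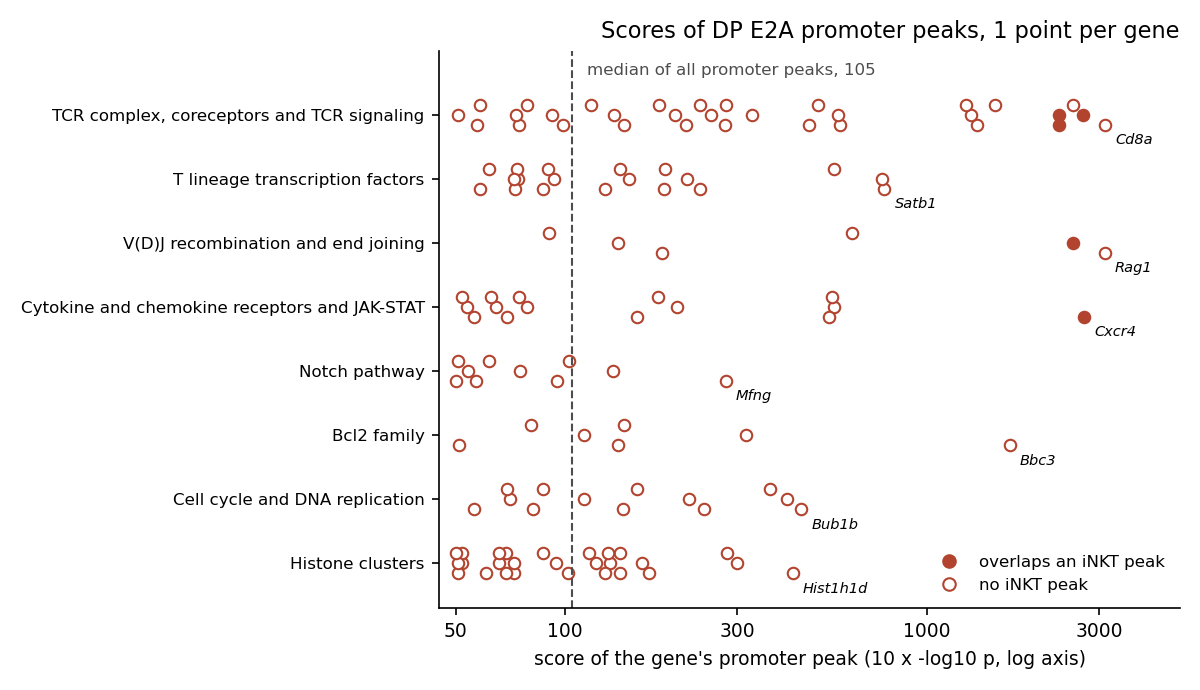
Score of the promoter peak, on a log axis, of each gene with such a peak in 8 classes, 1 point per gene, filled where an iNKT peak overlaps, and the highest gene of each class named. The dashed line is the median score of all promoter peaks, 105. Genes of the TCR class reach from 50.7 to 3100. The 3 filled ones are Sla2, Cd3d and Cd3g, of which the last 2 share 1 peak, so that 2 of the 31 distinct peaks of the class are shared, beside 3.25% of all promoter peaks.

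Genes for survival and division also had promoter peaks. Of the Bcl2 family, 7 of 22 had a promoter peak (31.8%, 16.4 to 52.7), led by the death gene Bbc3 (1694), which encodes Puma. Bcl2l1 (317), which encodes the Bcl-xL protein that keeps DP cells alive, Bcl2l11 (146), Mcl1 (140) and Bcl2 (113) followed. Of the cell cycle genes 13 of 55 had one (23.6%, 14.4 to 36.3). Most of these genes have a CpG-rich start, and 11 of those 46 had a peak (23.9%), beside 18.1% of all CpG-rich genes. The highest were the checkpoint kinase Bub1b (450), the repressor E2f7 (410) and Ccnd3 (369), the D-type cyclin of dividing thymocytes.

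Classes of genes that all cells use lay nearer to the share of CpG-rich starts, 18.1%, than to that of the TCR genes. Promoter peaks were found at 14 of 85 genes for cytosolic ribosomal proteins (16.5%), led by Rps12 (522), whose iNKT peak had a score of 122. The values were 16 of 75 for mitochondrial ribosomal proteins (21.3%), 11 of 48 for the proteasome (22.9%) and 13 of 86 for the respiratory chain and ATP synthase (15.1%). Chromatin remodelers and corepressors had 13 of 58 (22.4%), led by Hdac7 (1009), a deacetylase of DP thymocytes, and Tle3 (412).

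Histone genes stood out, with 27 of 67 (40.3%, 29.4 to 52.3). They lie in clusters, so the 27 genes shared 21 peaks. None of the 21 overlapped an iNKT peak, beside 3.25% of all promoter peaks. The scores were moderate, from 50.2 to 426, and the linker histone genes Hist1h1d (426) and Hist1h1c (281) were among the highest. The sequence at Hist1h4d had a copy number of 6, and that at Hist1h4i of 3.

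Classes of other tissues or of effector cells had shares below the 11.6% of all genes or intervals that included it. Only 2 of 1113 olfactory receptor genes had a promoter peak (0.180%), namely Olfr530 (455) and Olfr311 (71.9). The Zfp zinc finger genes had 33 of 361 (9.14%), of which Zfp651 (1934) was the highest. Effector cytokines had 2 of 21 (9.52%), Ltb (926), which encodes lymphotoxin beta, and Ccl4 (110). Il4 and Ifng, cytokines that iNKT cells make, had none. Cytotoxic granule and NK receptor genes had 4 of 24 (16.7%, 6.68 to 35.9), which were Gzma (895), Prf1 (287), Ctsw (85.5) and Klrb1c (61.8). All 24 have a CpG-poor start site, and the 6.53% of all such genes lies just below this interval. Of the effector cytokines 20 have a CpG-poor start, and 2 of these had a peak (10.0%).

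The DP promoter peaks were also set beside marker genes of the sorted cells. All 8 DP markers that could be measured, such as Cd8a, Rag1, Rag2 and Cd4, had a promoter peak (67.6 to 100%). Of the 6 iNKT markers 1 did, Klrb1c (16.7%, 3.01 to 56.4), and this interval includes the 11.6% of all genes. Markers of other cells had 1 of 12 for B cells (8.33%, 1.49 to 35.4; Vpreb1, 60), 2 of 13 for myeloid cells (15.4%, 4.33 to 42.2; Itgam, 61.0, and Sfpi1, 51.4) and 0 of 11 for erythroid cells (0 to 25.9%). Markers of thymic epithelium had 3 of 12 (25%, 8.89 to 53.2), namely Cldn4 (1483), Epcam (493) and Aire (58.8). The intervals of all 4 lists of other cells included the 11.6% of all genes. A peak is E2A binding and not expression, so these counts do not measure which cells were in the sort, and the part of other cells in the peaks was not tested.

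The distance of 1 kb is a choice, and the 3 peaks nearest to it on either side are given here. Just inside were Ppif (midpoint at 1000 bp, score 63.2), Sft2d2 (1000 bp, 56.6) and Galnt10 (997 bp, 101). Just outside were Prrt1 (score 1611), Slain1 (1004 bp, 292) and Dgke (1005 bp, 78.5).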

How the data were processed

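E2A ChIP-Seq peaks of DP and iNKT cells were analysed, 1 library each. By the study's methods, Bowtie 1.1.2 placed the reads on mm9 and reads with more than 1 equally good position were dropped. MACS 1.4.2 then called peaks with its defaults. The deposited score of each peak, made by the authors with MACS from its p-value, was used as given. The inputs are not analysed here. Depth is unknown.

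Peaks within 1 kb of a GENCODE M1 gene-level start, overlaps of at least 1 bp, motif cores and the copy number of words of 31 bases were computed with Python 3.11.15, numpy 2.4.6, scipy 1.17.1 and numba 0.67.0. Shares have Wilson intervals, their differences Newcombe intervals and medians order-statistic intervals, at 95%. The promoter rule, the overlap and the motif search were checked on simulated data, and 4 of 4 checks were exact. These 4 checks did not cover the intervals. A gene was counted by symbol, with its highest peak. Of the 23 gene lists, 2 names (Ptcra and Gfi1) matched no protein-coding gene of release M1.

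The members and lists were chosen with earlier results of these data known. Named genes are the peaks of score 3100 or more, the 10 with the highest iNKT score, the leading and shared members of each list, the peaks nearest to 1 kb and 14 genes for transcription factors, receptors and effectors fixed by name. Further list members and absences were named after their values were seen. Some genes under this rule are not reported here.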

Additional observations from a re-analysis of the deposited data

How the results depend on the processing

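Each of 8 results was recomputed under up to 7 other settings and 1 more that was added after the data had been seen, which gave 47 values. Of these, 19 values of 3 results, the differences in score, width and overlap, have a direction, and none of the 19 reversed. The number of promoter peaks was 1261 with scores of 100 or more. The share of DP peaks at promoters was 10.0% within 500 bp, 17.5% within 2 kb, 10.8% when the peak had to cover the start, 18.8% with the starts of all transcripts and 11.5% with scores of 100 or more. The share of genes with a promoter peak was 8.66%, 14.1%, 9.37%, 14.4% and 6.17% under the same settings. The median score of promoter peaks was 116 when the peak had to cover the start, 112 with all transcripts and 198 with scores of 100 or more. Its difference from other DP peaks was -29.1 (peak covers the start) and -88.4 (scores of 100 or more). The difference in width was 161 bp when the peak had to cover the start, a rule that by its construction takes wider peaks. The difference in iNKT overlap was -2.28 points (peak covers the start), -1.77 points (scores of 100 or more) and -0.914 points with the other DP peaks weighted to the score quintiles of the promoter peaks. Apart from the width under that rule and the counts, which follow from wider or narrower rules, the cause was not tested. No paired analysis was possible because each cell type had 1 library. Without read counts, no peak could be called absent from iNKT cells.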

Other observations

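The iNKT list had its own peaks at promoters, 89 of 1516 by the same rule (5.87%, 4.80 to 7.17), a smaller share than the 13.7% of the DP list, with the depth of both lists unknown. Of these 89, 76 overlapped a DP peak (85.4%, 76.6 to 91.3), and 73 of them a DP promoter peak. At Smad5, Sema4d and Gm10722 the DP peak (scores 587, 998 and 122) had its midpoint more than 1 kb from the start and so was not counted as a promoter peak.

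The 13 iNKT promoter peaks without a DP peak included Ifng, which encodes interferon gamma. Its iNKT peak, at chr10:117877337-117878248 with a score of 64.7, had its midpoint at an offset of -311 bp from the start and held 1 CAGGTG. Peaks of similarly low score lay at Ddx60 (60.8), 4930590J08Rik (53.3), Hace1 (52.3) and Enam (52.1), each with 1 CAGGTG. The other 8 held none. They were Gm7120 (105) and 7 predicted genes near the start of chromosome 9, of which Gm10715 (500) and Gm10720 (446) had the highest scores.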
